A study of Mus musculus with 12 samples.

Results

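The immune checkpoint receptors and their ligands were examined in 4T1 tumours by RNA-Seq. The set was chosen by name and held 10 of the 35944 genes to which the quantified transcripts belonged: the receptors Pdcd1 (PD-1), Ctla4 (CTLA-4), Havcr2 (TIM-3), Lag3 (LAG-3) and Tigit (TIGIT), the ligands Cd274 (PD-L1), Pdcd1lg2 (PD-L2), Cd80 and Cd86, and Vsir (VISTA), which acts both as a receptor and as a ligand. The line 4T1 comes from a mammary carcinoma of the mouse and grows in immunocompetent BALB/c mice. Female BALB/c mice aged 6 to 8 weeks carried tumours grown under the skin from 100000 4T1 cells. From day 5 they received peritumoural injections, 3 µg every 2 days, of extracellular vesicles (EVs) released by the mouse endothelial cell line MS-1, and the tumours were collected on day 21. The EVs carried a synthetic miRNA mimic, which was that of miR-142-5p, that of miR-183-5p, that of miR-222-3p or, as the control (ctrl), that of the nematode miRNA cel-miR-67. All mice bore tumours and all received EVs, so no comparison here included tumours without EVs. There were 3 tumours per group, 12 in all, with 1 library of polyadenylated RNA per tumour and between 20285968 and 27021401 estimated reads per library. The question addressed was whether the EV-borne miRNAs altered the expression of checkpoint genes in the tumour.

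Checkpoint receptors are surface proteins of T cells and other lymphocytes that restrain activation once they meet their ligand. PD-1 binds PD-L1 and PD-L2, which tumour cells, macrophages and dendritic cells display, and PD-L1 is induced by interferon-gamma. CD80 and CD86 on antigen-presenting cells bind the activating receptor CD28 as well as the inhibitory CTLA-4, and in tumours TIM-3 and VISTA are also carried by myeloid cells. The RNA came from whole tumours, so fewer cells of a type and less RNA per cell cannot be told apart.

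The mature sequences of the 3 mouse miRNAs are shown because a miRNA recognises a transcript mainly through its seed, bases 2 to 8 from the 5′ end, which are in capitals. They were taken from RefSeq on GRCm38.p6, where miR-142-5p is named miR-142a-5p. The mimic that the authors list for miR-222-3p is shorter at its 3′ end than the form shown, with the same seed. The sequence of cel-miR-67 is not shown.
mmu-miR-142a-5p, chr11:87756867-87756887, plus strand: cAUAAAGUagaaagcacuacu
mmu-miR-183-5p, chr6:30169711-30169732, minus strand: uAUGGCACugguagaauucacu
mmu-miR-222-3p, chrX:19146901-19146923, minus strand: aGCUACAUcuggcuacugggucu

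No seed was shared among the 3. The annotated 3′ UTRs of the checkpoint genes were searched on the transcript strand for 3 kinds of match. A 7mer-m8 pairs with bases 2 to 8, an 8mer adds an A after it, and a 7mer-A1 pairs with bases 2 to 7 followed by that A. The letters searched were ACTTTAT, ACTTTATA and CTTTATA for miR-142-5p, GTGCCAT, GTGCCATA and TGCCATA for miR-183-5p, and ATGTAGC, ATGTAGCA and TGTAGCA for miR-222-3p, and a 7-base match inside an 8mer was not counted again. One transcript was taken per gene, the coding transcript with the highest mean TPM (the authors' unit of level, which accounts for transcript length). Of the 10 checkpoint genes only Cd274 held a match. It had 1 match to miR-142-5p and 1 to miR-183-5p in its 3′ UTR of 2683 bases, and none to miR-222-3p. The same search of all 16 coding transcripts of the 10 genes with a complete annotated 3′ UTR found a match in that 1 transcript only. The 2 windows on chromosome 19 (GRCm38, plus strand), with the match in capitals, are shown as the only such matches in the set.
Cd274, 7mer-m8 to miR-142-5p, chr19:29387990-29388017: ttggtgtggcACTTTATtcttttgtgtt
Cd274, 7mer-A1 to miR-183-5p, chr19:29386384-29386411: ttgctatcctTGCCATAcagtctcttgt

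Such matches are common. Among 14588 tested genes with a 3′ UTR, 21.2% held a match to miR-142-5p, 14.7% to miR-183-5p and 16% to miR-222-3p. Among the 1809 genes whose 3′ UTR was between 0.8 and 1.25 times as long as that of Cd274, the shares were 37.6%, 25.6% and 29.7%. Vsir had the longest 3′ UTR of the set, 3745 bases, and held none of the 3, whereas 49.2% of the genes of like length held a match to miR-142-5p. The shortest were those of Lag3 (81 bases) and Tigit (134 bases). A match of letters is a description of the transcript and was not measured as binding.

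The tissue label was checked against marker genes. The tumour epithelial markers Krt8, Krt18, Krt19, Epcam and Cdh1 were present in each tumour, with a summed TPM of 1265 to 1855, and macrophage markers summed to 1174 to 2792. Tumour 3 of the miR-142-5p group stood apart, with T cell markers at 275 TPM against 38.6 to 99.3 in the other tumours and B cell markers at 419 TPM against 1.02 to 2.79. Tumour 3 of the miR-183-5p group had skeletal muscle markers at 274 TPM against 7.5 to 14.4. Of all the markers, only Krt1 of the skin keratinocyte list was listed at 0.

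The libraries fell into 2 sets by the share of reads that the mitochondrial pseudogene Gm28661 held of those of Gm28661 and mt-Co2. It was under 1% in the 3 miR-222-3p tumours and in miR-183-5p tumour 3, and between 7.13% and 41.8% in the other 8 tumours. All ctrl and all miR-142-5p tumours belonged to the second set, so the comparison of these 2 groups lay within it. The miR-222-3p group lay wholly in the first set, and for this group the library set and the miRNA cannot be told apart except through miR-183-5p tumour 3.

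Of the 10 checkpoint genes 9 were detected in each tumour. Vsir and Cd274 had the highest levels and Pdcd1 the lowest of those detected. The mean TPM over the 12 tumours was 49.9 ± 14.3 (SD, n = 12) for Vsir and 42.4 ± 7.54 for Cd274, levels above those of 78.6% and 74.8% of the tested genes. They were followed by Tigit at 19.9 ± 5.78 and Cd86 at 18.9 ± 5.25. Havcr2 had a mean TPM of 10.6 ± 1.83, Pdcd1lg2 of 9.16 ± 3.29, Lag3 of 8.84 ± 2.48, Cd80 of 7.89 ± 1.43 and Pdcd1 of 5.89 ± 1.77. The order was the same when normalised counts per kilobase were used in place of TPM.

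**Figure D1:**
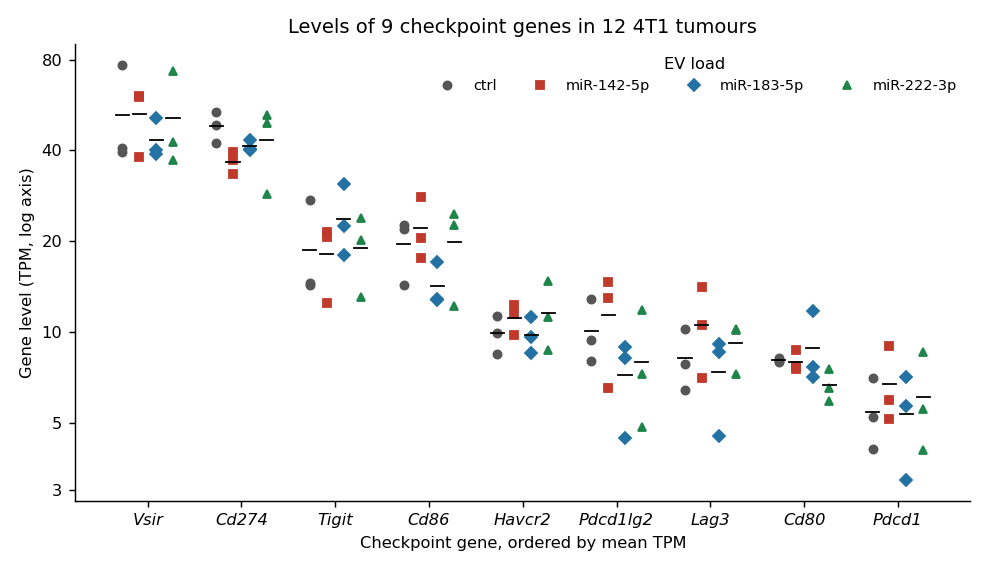
TPM (log axis) of the 9 detected checkpoint genes in each of the 12 tumours, by the miRNA loaded into the EVs; each symbol is 1 tumour and each line the mean of 3. Vsir and Cd274 have the highest means. Cd274 is above Tigit within each tumour, although their ranges over tumours overlap. The groups overlap for nearly all genes.

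Neighbours in this order mostly did not differ beyond their spread. Vsir was above Cd274 in 7 of the 12 tumours, Tigit above Cd86 in 6, Pdcd1lg2 above Lag3 in 5 and Lag3 above Cd80 in 7. Havcr2 was above Pdcd1lg2 in 9 tumours and Cd80 above Pdcd1 in 10. The 2 steps that were seen in all 12 tumours were Cd274 above Tigit and Cd86 above Havcr2, although the ranges over tumours still overlapped. Between tumours, Havcr2 varied least (coefficient of variation 17.3%), then Cd274 (17.8%) and Cd80 (18.1%), and Pdcd1lg2 varied most (35.9%), from 4.45 TPM in miR-183-5p tumour 3 to 14.6 TPM in miR-142-5p tumour 1.

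Ctla4 was the exception. Both of its coding transcripts were listed at 0 reads in all 12 libraries, and the gene's only signal was 2.10 estimated reads on a non-coding transcript in miR-142-5p tumour 3. A count of 0 allows up to 3 reads, which corresponds to between 0.111 and 0.148 RPM (reads scaled to library depth). The genes on either side of it on chromosome 1, which encode the related receptors CD28 and ICOS, had 23.0 to 378 and 46.0 to 316 estimated reads in every library, and Foxp3, the transcription factor of regulatory T cells, had 12.0 to 159. Ctla4 overlaps a processed pseudogene, Rpl18-ps1, on the same strand. The cause of the zeros was not tested, and Ctla4 is given here as listed at 0, with no fold change. The remaining 9 genes passed the filter of at least 10 reads in at least 3 libraries.

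On GRCm38, Cd274 (chr19:29367455-29388095) and Pdcd1lg2 (chr19:29410919-29471161) lie next to each other on the plus strand. Cd86 (chr16:36603869-36666081, minus strand), Cd80 (chr16:38455561-38496335, plus strand) and Tigit (chr16:43648867-43664146, minus strand) share chromosome 16. Pdcd1 (chr1:94038305-94052553, minus strand) shares chromosome 1 with Ctla4 (chr1:60887000-60915832, plus strand). Havcr2 is at chr11:46454935-46481255 (plus strand), Lag3 at chr6:124904361-124911705 (minus strand) and Vsir at chr10:60346851-60372684 (plus strand). All values are for whole genes, summed over their annotated transcripts.

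For most of the 9 genes a single coding transcript carried the level. Cd274, Pdcd1 and Tigit had 1 annotated transcript each, and Pdcd1lg2-201 held at least 90.2% of the TPM of its gene in each tumour. Lag3-201 held a median of 92.8%, Cd86-201 of 83.1% and Vsir-201 of 72.0%. Cd80 was split, with medians of 58.7% for Cd80-201 and 35.6% for Cd80-202. Havcr2-202 was near 0 in most tumours but reached 45.4% of the gene in ctrl tumour 1, where it had 4.51 TPM. Vsir lies within the span of Cdh23, which is on the opposite strand, and the library kit kept strand.

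Each group of tumours was then compared with ctrl, with DESeq2 fitted over all tested genes and p-values adjusted by the Benjamini-Hochberg method. No checkpoint gene passed the adjusted threshold of 0.05 against ctrl, 0 of 9 in each group. Over all genes, 0.00649% passed in the miR-142-5p group, 0% in the miR-183-5p group and 0.026% with miR-222-3p, so these comparisons made few calls of any kind. At an unadjusted p under 0.05, 1 of the 9 genes passed for miR-142-5p (Cd274) beside 3.56% of all genes, 0 for miR-183-5p beside 3.22%, and 0 for miR-222-3p beside 2.29%. edgeR called 0 in each comparison and gave the same counts of 1, 0 and 0 at an unadjusted p under 0.05. The median log2 fold change of the 9 genes was 0.16 in the miR-142-5p group, -0.12 in the miR-183-5p group and -0.01 with miR-222-3p, beside -0.0050, -0.011 and -0.0078 over all genes. The 3 comparisons share the ctrl tumours and are therefore not independent of each other.

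**Figure D2:**
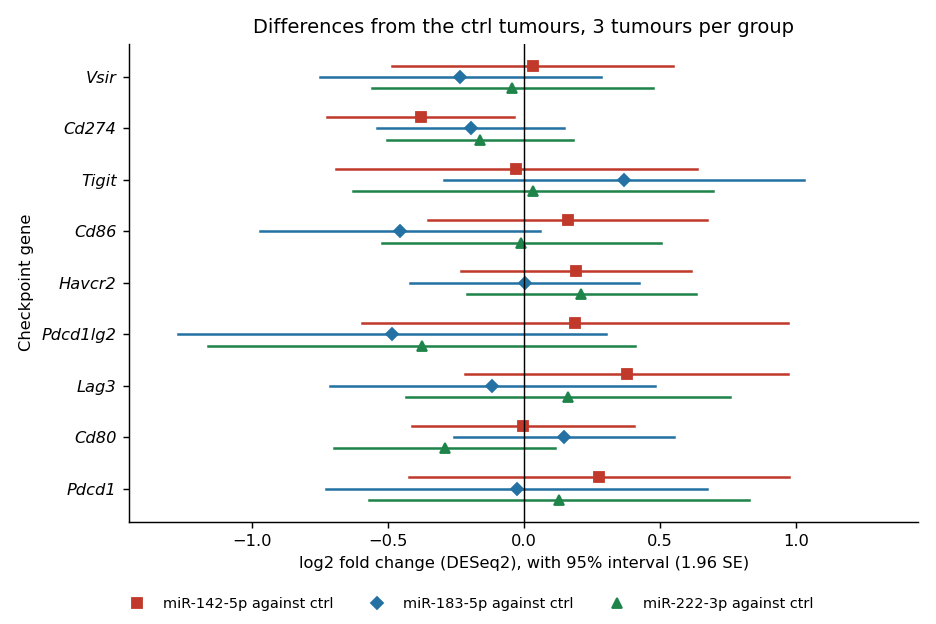
log2 fold change of each checkpoint gene in the 3 miRNA groups against ctrl, with the 95% interval; 3 tumours per group. The interval of Cd274 in the miR-142-5p group, from -0.72 to -0.04, is the only one that leaves out 0.

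Cd274 encodes PD-L1, the main ligand of PD-1. Its normalised read counts were 2622, 2686 and 2871 in the ctrl tumours, against 2262, 1926 and 2102 with miR-142-5p. All 3 miR-142-5p tumours lay below all 3 ctrl tumours. The log2 fold change was -0.38 (SE 0.18, 95% interval -0.72 to -0.04), which is 0.769 times the ctrl level, with an unadjusted p of 0.0305 and an adjusted p of 1.0 (DESeq2). Leaving out 1 tumour at a time moved the log2 fold change between -0.44 and -0.32 and the unadjusted p between 0.0286 and 0.113, and it was 0.0537 without ctrl tumour 2, 0.0915 without ctrl tumour 3, 0.113 without miR-142-5p tumour 2 and 0.0615 without miR-142-5p tumour 3. Of the 11 T cell markers 8 were higher in the miR-142-5p tumours at an unadjusted p under 0.05, but none was called and each overlapped ctrl. Their summed TPM was 57.9, 88.3 and 275 against 59.7 to 75.1, so that tumour 3 stood apart. Without that tumour the log2 fold change of Cd274 was -0.38. In the miR-183-5p tumours the counts of Cd274 were 2448, 2357 and 2339, again all below the ctrl tumours. That log2 fold change was -0.20 (SE 0.17, 95% interval -0.54 to 0.15), with an adjusted p of 1.0. The miR-222-3p tumours had the widest spread, 2621, 2983 and 1715, and included both the highest and the lowest value of all 12 tumours. Their log2 fold change was -0.16 (SE 0.17, 95% interval -0.50 to 0.18), with an adjusted p of 1.0. Across all genes the groups did not overlap for 6.07% in the miR-142-5p, 9.17% in the miR-183-5p and 5.5% in the miR-222-3p comparison, and 1 of the 9 checkpoint genes did so in each, Cd274 in the first and second.

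**Figure D3:**
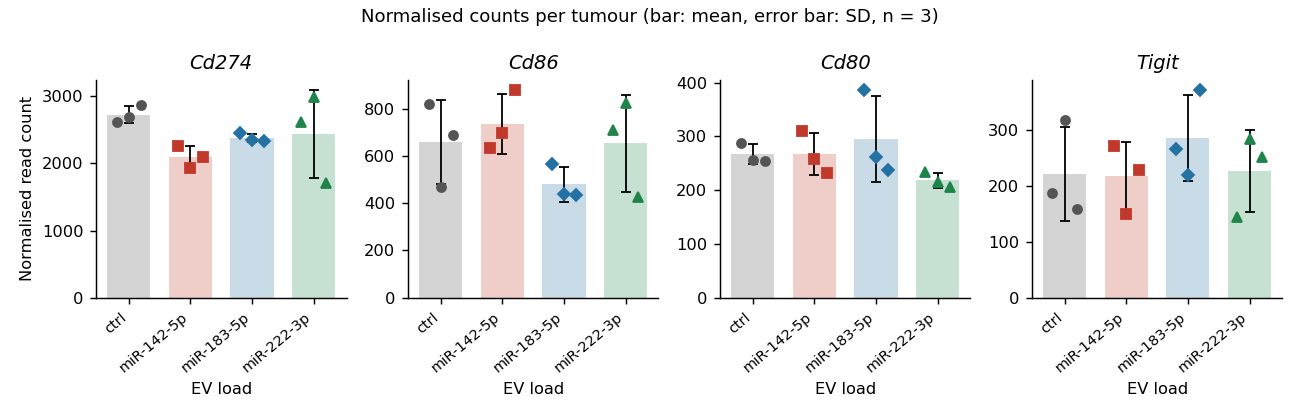
Normalised read counts of Cd274, Cd86, Cd80 and Tigit per tumour; bars are means, error bars SD (n = 3) and symbols single tumours. Cd274 is lower in the 3 miR-142-5p and the 3 miR-183-5p tumours than in any ctrl tumour, and Cd86 is lower in the 3 miR-183-5p than in the 3 miR-142-5p tumours.

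Pdcd1lg2, the second PD-1 ligand, had normalised counts of 337, 189 and 212 in the ctrl tumours. They were 377, 316 and 147 with miR-142-5p, 214, 205 and 108 with miR-183-5p and 163, 284 and 122 with miR-222-3p. The groups overlapped. The log2 fold changes against ctrl were 0.19 (SE 0.40), -0.48 (SE 0.40) and -0.37 (SE 0.40), the last for miR-222-3p.

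The B7 ligands Cd80 and Cd86 did not pair in their pattern. Cd80 had counts of 289, 257 and 255 in the ctrl tumours, against 233, 216 and 205 with miR-222-3p. All 3 miR-222-3p tumours were below the ctrl tumours, at a log2 fold change of -0.29 (SE 0.21, 95% interval -0.70 to 0.12) and an adjusted p of 1.0. With the library set as a term of the fit it was 0.16. The counts are corrected for transcript length, and the transcripts of Cd80 did not move together. Cd80-201 had 2.56 to 3.50 TPM in the miR-222-3p tumours against 4.23 to 4.93 in ctrl, and Cd80-203 had 0.23 to 0.54 against 0.76 to 0.92. Cd80-202 had 2.49 to 4.07 against 2.40 to 2.90. Whether this shift made the gene's difference was not tested. The counts were 309, 258 and 233 with miR-142-5p and 386, 261 and 237 with miR-183-5p, and both groups overlapped ctrl, at log2 fold changes of -0.0026 (SE 0.21) and 0.15 (SE 0.21). Cd86 had counts of 819, 466 and 688 in the ctrl tumours, 632, 695 and 878 with miR-142-5p, 565, 440 and 434 with miR-183-5p and 710, 823 and 427 with miR-222-3p. The 3 miR-183-5p tumours were low but overlapped the lowest ctrl tumour. The log2 fold change of Cd86 was -0.45 (SE 0.26, 95% interval -0.97 to 0.06, unadjusted p 0.0839, adjusted p 1.0) in the miR-183-5p group, 0.16 (SE 0.26) in the miR-142-5p group and -0.01 (SE 0.26) in the miR-222-3p group.

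Among the receptors no group separated from ctrl. Pdcd1, which encodes PD-1, had counts of 219, 115 and 141 in the ctrl tumours. They were 158, 173 and 243 with miR-142-5p, 202, 169 and 94 with miR-183-5p and 149, 247 and 122 with miR-222-3p. The log2 fold changes were 0.28, -0.03 and 0.13, each with an SE of 0.36, so the 95% interval for miR-142-5p reached from -0.42 to 0.98. Havcr2 lay between 343 and 615 counts over all tumours and its log2 fold changes were 0.19 (SE 0.22), 0.0028 (SE 0.22) and 0.21 (SE 0.21). The 95% interval in the miR-183-5p group, -0.42 to 0.42, was narrower than that of any other receptor tested.

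Lag3, a receptor for MHC class II and other ligands, had counts of 237, 175 and 268 in the ctrl tumours. They were 210, 398 and 276 with miR-142-5p, 238, 262 and 127 with miR-183-5p and 267, 284 and 211 with miR-222-3p. The highest value was in miR-142-5p tumour 2 and the lowest in miR-183-5p tumour 3, and the log2 fold changes were 0.38 (SE 0.30), -0.12 (SE 0.30) and 0.16 (SE 0.30). Without miR-142-5p tumour 2 the first of these was 0.10, and without ctrl tumour 2 the last was 0.0061. Tigit, the receptor for the adhesion molecule PVR, had counts of 187, 318 and 159 in the ctrl tumours. They were 273, 150 and 229 with miR-142-5p, 266, 220 and 372 with miR-183-5p and 145, 284 and 252 with miR-222-3p. The log2 fold changes of Tigit were -0.03 (SE 0.34), 0.37 (SE 0.34, 95% interval -0.29 to 1.03) and 0.03 (SE 0.34). Its value for miR-183-5p was 0.13 without tumour 3 of that group.

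Vsir had counts from 2542 in miR-222-3p tumour 3 to 4703 in ctrl tumour 3. Its log2 fold changes were 0.03, -0.23 and -0.04 (SE 0.26 each). In the ctrl group tumour 3 stood well above tumours 1 and 2, at 2791 and 2580, and the miR-222-3p group was spread in the same way, with tumour 1 at 4461.

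The comparisons among the miRNA groups asked whether the 3 loads differed from each other. None of the 9 genes passed the adjusted threshold with DESeq2 or edgeR, beside 0.0519% of all genes between the miR-183-5p and miR-142-5p groups, 0.0324% between the miR-183-5p and miR-222-3p groups and 0.0389% between those of miR-142-5p and miR-222-3p. At an unadjusted p under 0.05, 1, 1 and 0 of the 9 genes passed with either tool, beside 7.95%, 3.24% and 3.59% of all genes (DESeq2). The groups did not overlap for 2, 1 and 0 of the 9 genes, beside 12.3%, 9.06% and 6.2% of all genes.

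Cd86 was the gene that set the miR-183-5p tumours apart from the miR-142-5p tumours by unadjusted p. Its 3 values of 434 to 565 lay below the 3 values of 632 to 878. The log2 fold change was -0.62 (SE 0.26, 95% interval -1.13 to -0.10), which is 0.653 times, with an unadjusted p of 0.0188 and an adjusted p of 0.48 (DESeq2). Without miR-142-5p tumour 3 it was -0.47 with an unadjusted p of 0.105, and without miR-183-5p tumour 2 or 3 it was -0.56 or -0.55 with an unadjusted p of 0.0669 or 0.0696. With the library set as a term it was -0.55 with an unadjusted p of 0.0696. The macrophage marker list moved the same way. Of its 10 genes, 5 were lower in the miR-183-5p tumours at an unadjusted p under 0.05, none was called, and the summed TPM was 1174 to 1761 against 1907 to 2792. Of the 11 T cell markers 9 were lower at an unadjusted p under 0.05, with sums of 38.6 to 77.8 against 57.9 to 275. None of these markers was listed at 0, and their part in the result was not tested. Cd274 was higher in all 3 miR-183-5p than in all 3 miR-142-5p tumours, at a log2 fold change of 0.18 (SE 0.17) and an adjusted p of 0.93.

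Cd80 was the gene with an unadjusted p under 0.05 between miR-183-5p and miR-222-3p. The 3 miR-183-5p values, 237 to 386, lay above the 3 miR-222-3p values, 205 to 233. The log2 fold change was 0.44 (SE 0.21, 95% interval 0.03 to 0.84, unadjusted p 0.0338, adjusted p 1.0 with DESeq2). It was 0.19 (unadjusted p 0.313) without miR-183-5p tumour 1, and 0.43 (0.0768) and 0.39 (0.101) without miR-222-3p tumour 2 and 3. It was 0.29 (0.173) with no length offset, 0.43 (0.0613) with the 2 groups fitted alone and 0.12 (0.672) when the library set was a term of the fit. The other settings kept an unadjusted p under 0.05.

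With the library set as a term, the log2 fold change for miR-222-3p against ctrl was 1.14 (SE 0.48, unadjusted p 0.0175) for Lag3, 1.11 (SE 0.60) for Pdcd1, 0.57 (SE 0.70) for Pdcd1lg2 and -0.58 (SE 0.59) for Tigit, each with an adjusted p of 1.0. The term for the set rested on miR-183-5p tumour 3 against tumours 1 and 2, as no other group held both sets. Lag3 and Pdcd1 had their lowest counts of the 12 tumours in that tumour 3, at 127 and 94. These values therefore cannot be read as an effect of miR-222-3p apart from that tumour. Without miR-183-5p tumour 3, both groups compared lay in the set of 8 tumours, although the fit still included the miR-222-3p tumours. The miR-183-5p tumours 1 and 2 against ctrl then gave 0.14 for Lag3, 0.23 for Pdcd1, -0.39 for Cd86 and -0.18 for Cd274, with adjusted p-values of 1.0.

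The 9 genes were set against the T cell and macrophage lists over the 12 tumours, on the log2(normalised count + 1) scale, with 18 relations and two-sided permutation p-values. By r, Pdcd1 and Cd86 passed with the T cell list and Lag3 and Vsir with the macrophage list, whereas Tigit ran opposite to the macrophage list. By rho, Lag3 and Vsir also passed with the T cell list. The r of Pdcd1 with the T cell list was 0.72 (adjusted permutation p = 0.0176), with a rho of 0.76 (adjusted permutation p = 0.0215). The r was 0.66 without the 2 tumours farthest from the median of the list, 0.69 after the group means were subtracted and 0.73 within the 8 tumours of the second library set. For Cd86 the r was 0.73 (adjusted permutation p = 0.00333) and the rho 0.87 (adjusted permutation p = 0.00504), and the r under these 3 conditions was 0.76, 0.70 and 0.67. The first library set held 4 tumours, too few for its own value.

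Tigit is a lymphocyte receptor, and its counts were lower where macrophage markers were higher. Its r with the macrophage list was -0.91 (adjusted permutation p = 0.0009) and its rho -0.88 (adjusted permutation p = 0.00504). The r was -0.88 without the 2 tumours farthest from the median, -0.95 after the group means were subtracted and -0.87 within the second library set. With the T cell list the r of Tigit was -0.38 (adjusted permutation p = 0.34), with a rho of -0.64 (adjusted permutation p = 0.0623).

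Vsir had an r of 0.69 with the macrophage list (adjusted permutation p = 0.0349) and a rho of 0.83 (adjusted permutation p = 0.00693), and the r under the same 3 conditions was 0.74, 0.68 and 0.59. With the T cell list the r of Vsir was 0.49 (adjusted permutation p = 0.189) and its rho 0.74 (adjusted permutation p = 0.0226). Lag3 had an r of 0.85 with the macrophage list (adjusted permutation p = 0.00816) and a rho of 0.64 (adjusted permutation p = 0.0623). Its r was 0.48 without miR-142-5p tumour 2 and miR-183-5p tumour 3, so the relation rested on them together, and it was 0.85 after the group means were subtracted and 0.86 within the set of 8 tumours. Lag3 also had a rho of 0.84 with the T cell list (adjusted permutation p = 0.00693) although its r was 0.58 (adjusted permutation p = 0.162). Without miR-142-5p tumour 3, whose T cell markers stood apart, the r of Lag3 with the T cell list was 0.87, that of Havcr2 went from 0.14 to 0.73, and that of Tigit from -0.38 to -0.76 (adjusted permutation p = 0.0202). With Pdcd1 and Cd86 this made 5 genes in place of 2 that passed with that list, Tigit with a negative r. Cd274, Pdcd1lg2 and Cd80 passed with neither list, with all tumours or without that one.

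**Figure D4:**
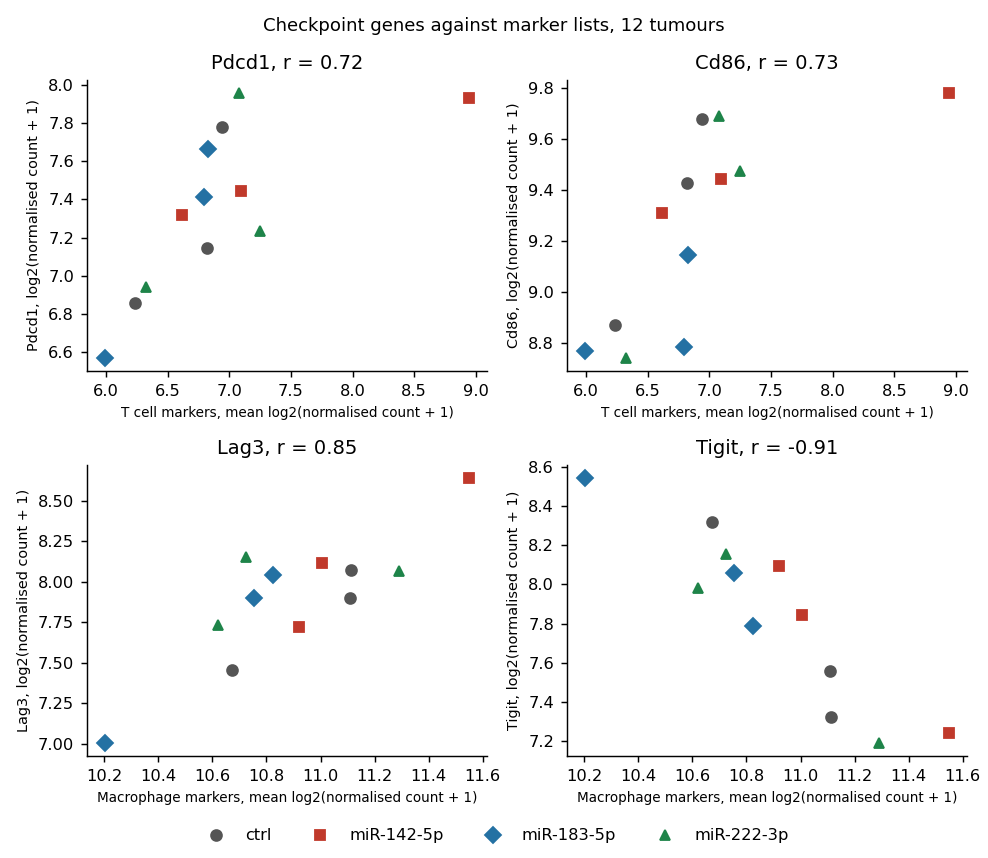
Pdcd1 and Cd86 against the mean of 11 T cell markers, and Lag3 and Tigit against the mean of 10 macrophage markers, all as log2(normalised count + 1); each symbol is 1 of the 12 tumours. Pdcd1 and Cd86 are higher where T cell markers are higher, and Tigit is lower where macrophage markers are higher (r = -0.91).

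Receptor counts were also set against the summed normalised counts of Cd3e, Cd3d and Cd3g, subunits of the T cell receptor complex, which ranged from 234 in miR-183-5p tumour 3 to 1573 in miR-142-5p tumour 3. The log2 ratio of Pdcd1 to this sum was -1.52, -1.70 and -1.70 in the ctrl tumours. It was -1.47, -1.99 and -2.70 with miR-142-5p, -1.52, -1.67 and -1.31 with miR-183-5p and -2.16, -1.53 and -1.62 with miR-222-3p. The lowest ratio was in miR-142-5p tumour 3, and the groups overlapped. The mean minus that of ctrl was -0.42 in the miR-142-5p group, 0.13 in the miR-183-5p group and -0.13 with miR-222-3p, where the SD of the ratio within groups was 0.10 to 0.62. The ratios of Havcr2, Lag3 and Tigit were likewise lowest in miR-142-5p tumour 3, at -2.05, -2.51 and -2.78. For Pdcd1, Havcr2 and Tigit the ratio was highest in miR-183-5p tumour 3, at -1.31, 0.62 and 0.67. For Lag3 it was highest in ctrl tumour 3, at -0.77. The CD3 sum itself was lowest in miR-183-5p tumour 3 and highest in miR-142-5p tumour 3, so these ratios also follow their denominator.

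The checkpoint genes varied together only in part. Of their 36 pairs, 28 had an r above 0 over the 12 tumours and 11 an r above 0.5, with a median of 0.18. These values share libraries and normalisation and are given as a description. The highest were those of Pdcd1 with Cd86 (r = 0.77), Pdcd1lg2 with Havcr2 (0.76) and Pdcd1 with Lag3 (0.67). The lowest were those of Tigit with Vsir (-0.77) and with Lag3 (-0.76). Cd274 had no r above that with Cd86 (0.31), which was 0.65 after the group means were subtracted. After the group means were subtracted the pair of Pdcd1lg2 and Havcr2 had an r of 0.90.

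**Figure D5:**
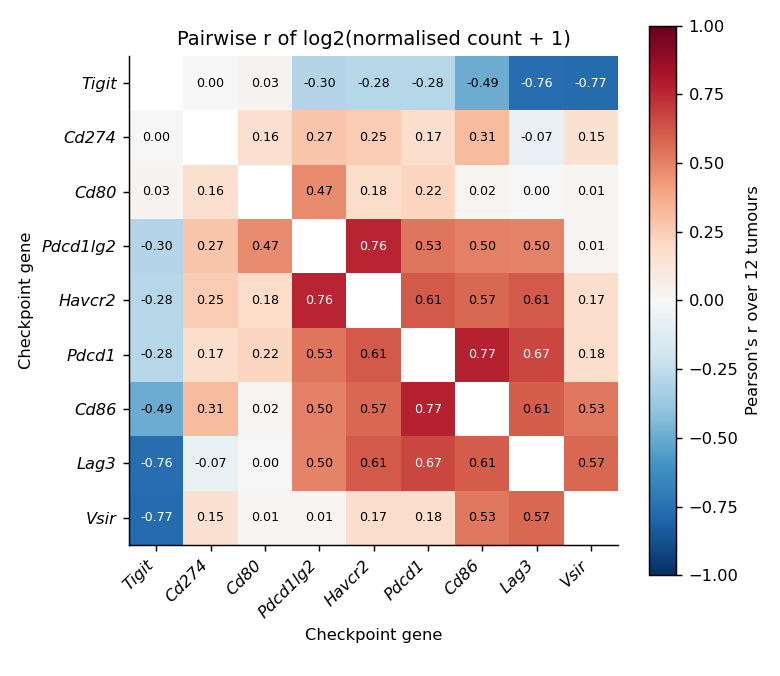
Pearson's r of log2(normalised count + 1) between the 9 detected checkpoint genes over the 12 tumours, from -1 (blue) to 1 (red). The block of positive values joins Pdcd1lg2, Havcr2, Pdcd1, Cd86 and Lag3, and Tigit is negative with Vsir and Lag3.

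Among 11542 genes with a mean normalised count of at least 100, those most like each checkpoint gene over the 12 tumours were sought by r. The genes named had the highest r of all these, a choice that favours high values, and none was tested. They are given as a description. Pdcd1 was most like Cd3g (r = 0.87), a subunit of the T cell receptor complex, and Nkg7 (0.85), a gene of cytotoxic granules. Lag3 was most like Fgf1 (0.96), a growth factor, and Klrd1 (0.93), which encodes the NK receptor CD94. Tigit was most like Gtse1 (0.96), a gene of the G2 and S phases of the cell cycle, and Got2 (0.95), a mitochondrial aminotransferase. Vsir was most like Cd93 (0.97), a receptor of myeloid and endothelial cells, and Arid4b (0.97), a chromatin regulator.

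Cd86 was most like Dnase1l3 (0.93), a secreted nuclease, and Evl (0.91), an actin regulator. Pdcd1lg2 was most like Blvra (0.92), biliverdin reductase, and Ctss (0.89), the lysosomal protease cathepsin S. Cd274 was most like Pdp1 (0.86), a phosphatase of pyruvate dehydrogenase, and Mrpl23 (0.84), a mitochondrial ribosomal protein. For Havcr2 they were Zfp781 and Sirpb1c (both 0.84), and for Cd80 Odf2l (0.81) and Pygl (0.78), a glycogen phosphorylase.

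The other genes of the checkpoint pathways were counted by list, and none of their tested members was called in any of the 6 comparisons by DESeq2 or edgeR. Of the 11 genes of the CD28 and B7 family 9 passed the count filter. Their median log2 fold change was 0.60 in the miR-142-5p group, -0.16 in the miR-183-5p group and 0.04 with miR-222-3p, all against ctrl. For miR-142-5p, 2 were higher at an unadjusted p under 0.05, beside 3.56% of all genes at that p in either direction. They were the activating receptors Cd28, at 166 ± 159 against 63.5 ± 39.1 normalised counts (SD, n = 3) and a log2 fold change of 1.39 (SE 0.62, adjusted p 1.0), and Icos, at 156 ± 116 against 68.7 ± 23.6 and 1.19 (SE 0.45, adjusted p 0.99). Both overlapped ctrl, with estimated reads of 48, 74 and 378 for Cd28 and 64, 100 and 316 for Icos in the miR-142-5p tumours, and were high in tumour 3. DESeq2 gave no p for Btla, an inhibitory receptor of B and T cells. For miR-222-3p the 1 gene was Igsf11, a ligand of VISTA, with 21.1 ± 5.84 against 9.84 ± 4.00 normalised counts (SD, n = 3), groups that did not overlap, and a log2 fold change of 1.12 (SE 0.57, adjusted p 1.0). In that comparison 5.5% of all genes did not overlap and 2.29% had an unadjusted p under 0.05 (DESeq2).

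Of the 12 ligands and co-receptors of TIGIT, TIM-3, LAG-3 and VISTA 10 passed the filter, with medians of -0.04, 0.05 and 0.03. Between miR-142-5p and ctrl, 1 of them was lower (Pvr) and 1 higher (Selplg) at an unadjusted p under 0.05 with DESeq2. Pvr, the main ligand of TIGIT, was at 1907 ± 201 in the miR-142-5p against 2231 ± 151 in the ctrl tumours (SD, n = 3), a log2 fold change of -0.23 (SE 0.11) with an adjusted p of 1.0, and the groups overlapped. Selplg was at 1018 ± 164 against 776 ± 114 in these groups, also with overlap, at 0.39 (SE 0.16). The unadjusted p was 0.0160 for Selplg and 0.0412 for Pvr (DESeq2), and neither gene was called. Ceacam1, a partner of TIM-3, was at 58.0 ± 3.89 in the miR-183-5p against 85.7 ± 19.0 in the ctrl tumours, without overlap, at -0.56 (SE 0.30) and an adjusted p of 1.0. Nectin2 was higher without overlap in that comparison, at 1262 ± 48.4 against 1129 ± 55.0 and 0.16 (SE 0.15). The groups did not overlap for 9.17% of all genes. Nectin3, a further TIGIT ligand, was at 441 ± 54.9 against 355 ± 69.9 in the same comparison, with overlap, at 0.31 (SE 0.18).

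The genes from interferon-gamma to PD-L1 were all 10 detected, and none passed an unadjusted p of 0.05 in any of the 6 comparisons with DESeq2. Their medians against ctrl were -0.05, -0.05 and -0.10. Irf1, a transcription factor of the interferon response, was at -0.35, -0.26 and -0.29 (SE 0.19 each) in the 3 groups, and Socs1, its feedback inhibitor, at -0.41, -0.50 and -0.52 (SE 0.35 each), so both were on the same side of ctrl in each group and overlapped it. Cmtm6, which stabilises PD-L1 at the cell surface, was at -0.04, -0.07 and -0.07 (SE 0.10, 0.09 and 0.09).

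Of the 12 regulators of exhausted and regulatory T cells 11 passed the filter, with medians of 0.50, 0.03 and -0.02. In the miR-142-5p group 5 of them were higher at an unadjusted p under 0.05, beside 3.56% of all genes at that p in either direction, and Tcf7, a factor of stem-like T cells, had the lowest p. It was at 503 ± 435 against 232 ± 22.5 normalised counts (SD, n = 3), a log2 fold change of 1.12 (SE 0.42, adjusted p 0.98 with DESeq2), and the groups overlapped. Of the 10 TNF receptor family genes of costimulation 7 passed the filter, with medians of 0.38, -0.15 and -0.02, and 3 were higher in the miR-142-5p group at an unadjusted p under 0.05, beside the same 3.56% of all genes. Among them Cd27, a receptor of T cells, was at 165 ± 173 against 63.1 ± 29.5 normalised counts (SD, n = 3), with overlap, and a log2 fold change of 1.39 (SE 0.59, adjusted p 1.0). Tnfsf4, the ligand of OX40, had the lowest p among partners lower with miR-222-3p, at 5.61 ± 0.401 against 13.9 ± 8.14 normalised counts (SD, n = 3) and a log2 fold change of -1.32 (SE 0.68, adjusted p 1.0). Tumour 3 of the miR-142-5p group, where T cell markers stood apart, contributes to each of these medians for miR-142-5p, and its part was not tested for these lists.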

How the data were processed

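Whole-tumour RNA of 12 tumours, 3 per group, was sequenced from strand-specific polyA libraries. The authors mapped the reads with Salmon to Ensembl mouse transcripts on GRCm38 (the sources give differing Ensembl releases) and deposited, per library, estimated counts and TPM per transcript. Each library is 1 tumour and none was pooled. Of 118783 transcripts 116710 (98.3%) were matched to GENCODE M21, giving 35944 genes, and the unmatched ones held 0.633% to 0.671% of the reads. Depth was 20285968 to 27021401 estimated reads, and the floor of 3 reads covers counting error only.

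Estimated counts were summed per gene, rounded and fitted with DESeq2 1.42.0 (R 4.3.3) over all 12 libraries, with group as the term and an effective-length offset, after a filter of at least 10 reads in at least 3 libraries (15459 genes). Intervals are 95% intervals from the SE. The threshold was an adjusted p of 0.05, by Benjamini-Hochberg over all genes tested. edgeR 4.0.16, TMM factors, no filter, no length offset, 2 groups only, the replicate number as a block, coding transcripts only, the library set as a term and leaving out each tumour were the alternatives. Correlations used log2(normalised count + 1) and 100000 permutations (scipy 1.17.1). Relations without miR-142-5p tumour 3 and within a library set were added after the data were seen.

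The genes and lists were chosen with earlier results of these data known. All 10 checkpoint genes were named whatever their values, with the 2 genes most like each and, against ctrl, the pathway gene with the lowest p in each direction. Cd28, Icos, Cd27, Selplg, Nectin2, Irf1, Socs1 and Cmtm6 were named after their values were seen. Pairs of libraries within a group differed by 13.1 to 56 times the sampling noise (chi-square per degree of freedom), so none was a copy. Nothing states how far the 3 tumours of a group were handled apart, so p-values measure the spread between these samples.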

Additional observations from a re-analysis of the deposited data

How the results depend on the processing

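No checkpoint gene was called under any setting tried, and the lowest adjusted p over all of them was 0.0985 (Cd86, the miR-183-5p and miR-142-5p groups fitted alone, DESeq2). Of 432 log2 fold changes under settings other than leaving out a tumour, 413 kept their sign and 19 reversed, 14 of these with the library set as a term. With that term the log2 fold change was 0.23 for Pdcd1 and 0.14 for Lag3 in miR-183-5p against ctrl. In miR-222-3p against ctrl it was 0.57 for Pdcd1lg2, -0.58 for Tigit, 0.16 for Cd80, 0.20 for Cd86 and 0.12 for Vsir. Between the miR-142-5p and miR-222-3p groups it was -0.39 for Pdcd1lg2, -0.83 for Pdcd1, -0.76 for Lag3, 0.55 for Tigit, -0.16 for Cd80, -0.040 for Cd86 and -0.084 for Vsir. The other reversals were Cd80 in miR-142-5p against ctrl (0.11 with no length offset, 0.00037 with edgeR), Vsir in miR-222-3p against ctrl (0.027 with no length offset) and Havcr2 in miR-183-5p against ctrl (-0.016 with coding transcripts only). The cause was not tested. The replicate numbers gave no sign of pairing the tumours (mean residual r -0.0675 for the same number, 0.0334 for different ones). The values for the same number ran from -0.577 to 0.357, too wide a range to show that the tumours were unpaired. With the replicate number as a block, Havcr2 in miR-183-5p against ctrl was at -0.015, 2 genes in place of 1 had an unadjusted p under 0.05 between the miR-183-5p and miR-142-5p groups, and no other call changed.

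Signed values between 2 miRNA groups are the first named minus the second. Leaving out 1 tumour reversed 55 of 324 values, in 28 of 54 results, none of which exceeded 0.23 in size with all tumours. For miR-142-5p against ctrl the log2 fold changes ran over Cd80 -0.12 to 0.087, Vsir -0.13 to 0.36, Tigit -0.22 to 0.33, Cd86 -0.036 to 0.35 and Pdcd1lg2 -0.087 to 0.50. For miR-183-5p against ctrl the log2 fold changes ran over Pdcd1 -0.26 to 0.28, Havcr2 -0.11 to 0.093, Lag3 -0.31 to 0.14, Vsir -0.39 to 0.091 and Cd80 -0.098 to 0.28. For miR-222-3p against ctrl the log2 fold changes ran over Tigit -0.16 to 0.39, Cd86 -0.21 to 0.22, Pdcd1 -0.22 to 0.43, Vsir -0.34 to 0.28, Havcr2 -0.014 to 0.35 and Cd274 -0.33 to 0.039. Between the miR-183-5p and miR-142-5p groups the log2 fold changes ran over Cd80 -0.095 to 0.28. Between the miR-183-5p and miR-222-3p groups the log2 fold changes ran over Pdcd1lg2 -0.35 to 0.30, Pdcd1 -0.39 to 0.19, Cd274 -0.23 to 0.14, Vsir -0.34 to 0.10 and Havcr2 -0.35 to 0.017. Between the miR-142-5p and miR-222-3p groups the log2 fold changes ran over Lag3 -0.062 to 0.41, Tigit -0.30 to 0.15, Vsir -0.074 to 0.37, Pdcd1 -0.060 to 0.50, Havcr2 -0.16 to 0.21 and Cd86 -0.058 to 0.37. A group left with 2 tumours was fitted with the spread of all groups.

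With the short macrophage list the r was 0.18 for Cd274, -0.0049 for Cd80 and 0.74 for Cd86 (adjusted permutation p = 0.022). Without miR-142-5p tumour 3, 5 genes in place of 2 passed with the T cell list, and the r with it was 0.28 for Cd274 and 0.12 for Cd80. With a short T cell list (Cd3e, Cd3d and Cd3g) and without that tumour, Pdcd1, Havcr2, Lag3 and Cd86 passed. Tigit did not pass there (r = -0.62, adjusted permutation p = 0.0718). Over all 12 tumours, the rho of Vsir with the short T cell list was 0.57 (adjusted permutation p = 0.11) and did not pass. Over all genes, the number called ranged over the settings from 0 to 77 for miR-142-5p against ctrl (1 as reported), 0 to 37 for miR-183-5p (0) and 0 to 15 for miR-222-3p (4). It was 0 to 410 between the miR-183-5p and miR-142-5p groups (8), 0 to 32 between the miR-183-5p and miR-222-3p groups (5) and 0 to 73 between the miR-142-5p and miR-222-3p groups (6), and the 410 came without miR-142-5p tumour 1.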
